A study of Mus musculus with 6 samples.

Results

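Transcript levels of 8 nuclear receptor genes of metabolism (Ppara, Ppard, Rxra, Rxrb, Thrb, Nr3c1, Esr1 and Esrra) and of the coactivator gene Ppargc1a were examined in mouse liver RNA-seq. The 9 genes were taken by symbol from a table of 22173 gene symbols, and all 9 were listed in it. The series covers 6 wild-type mice in 2 groups, 3 given the compound DDK and 3 given vehicle, all on a diet named HFHC. The diet started when the mice were 6 weeks old and ran for 16 weeks, and DDK or vehicle was given in the last 4. According to its title and design text, the study asks how DDK, a limonoid, protects mice with MASH, metabolic dysfunction-associated steatohepatitis, in which fat storage in the liver comes with inflammation. Both groups received the diet, no group on another diet was analysed here, and the sex and strain of the mice are not given in the sources used here. Only RNA was measured, so receptor protein, ligand and DNA binding were not.

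Nuclear receptors are transcription factors that are switched by small fat-soluble ligands such as fatty acids, thyroid hormone, glucocorticoids and estrogens. Many of them bind DNA as a pair with a retinoid X receptor (RXR), at sites built from the half-site AGGTCA. In liver, PPAR alpha drives fatty acid oxidation and ketone body synthesis during fasting, the thyroid hormone receptor beta controls lipid turnover, and the glucocorticoid receptor supports gluconeogenesis. ERR alpha has no known classical hormone, and it acts with PGC-1 alpha, the product of Ppargc1a, on genes of mitochondrial respiration.

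The windows around the annotated start sites of 4 of these genes are shown. These are the receptor genes that passed the test and for which a window was used here, together with the coactivator gene. No window of Nr3c1 was used. Each window of 300 bases ends 50 bases after a RefSeq start on GRCm38.p6 and is written 5′ to 3′ on the gene's own strand. Of the 2 Rxra windows, the one that held matches is shown. They lie at chr15:85735526-85735825 (Ppara, plus strand), chr2:27709042-27709341 (the second annotated start of Rxra, plus strand, inside the gene), chr19:6921759-6922058 (Esrra, minus strand) and chr5:51567676-51567975 (Ppargc1a, minus strand). Capitals mark the half-site AGGTCA or the cAMP response element half-site TGACG, each searched on both strands.
Ppara: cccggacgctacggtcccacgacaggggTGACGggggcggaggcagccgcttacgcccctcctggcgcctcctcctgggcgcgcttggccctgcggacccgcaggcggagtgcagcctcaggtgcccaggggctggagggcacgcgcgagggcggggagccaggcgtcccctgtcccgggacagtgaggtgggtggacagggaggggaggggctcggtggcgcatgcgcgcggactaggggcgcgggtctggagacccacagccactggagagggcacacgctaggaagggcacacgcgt
Rxra: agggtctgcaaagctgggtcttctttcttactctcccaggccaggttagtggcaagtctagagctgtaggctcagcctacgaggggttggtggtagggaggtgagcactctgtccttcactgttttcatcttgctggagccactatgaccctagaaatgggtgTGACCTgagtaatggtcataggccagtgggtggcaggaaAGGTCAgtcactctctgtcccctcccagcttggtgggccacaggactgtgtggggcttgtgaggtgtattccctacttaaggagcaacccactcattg
Esrra: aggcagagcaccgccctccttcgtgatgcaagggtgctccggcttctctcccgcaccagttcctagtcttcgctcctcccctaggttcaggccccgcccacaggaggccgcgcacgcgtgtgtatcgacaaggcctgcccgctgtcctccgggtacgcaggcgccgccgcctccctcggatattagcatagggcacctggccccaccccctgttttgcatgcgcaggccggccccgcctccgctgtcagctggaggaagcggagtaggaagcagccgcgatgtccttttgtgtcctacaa
Ppargc1a: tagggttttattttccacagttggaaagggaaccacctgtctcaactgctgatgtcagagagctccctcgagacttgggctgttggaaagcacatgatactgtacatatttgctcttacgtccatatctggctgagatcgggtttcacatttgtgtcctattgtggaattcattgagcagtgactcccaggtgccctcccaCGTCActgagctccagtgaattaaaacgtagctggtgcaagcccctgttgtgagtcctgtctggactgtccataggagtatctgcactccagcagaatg

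The second Rxra window held 2 AGGTCA half-sites, and the first Rxra window (not shown) and the Ppara, Esrra and Ppargc1a windows held 0. Of all 32851 RefSeq windows of this length, 16.3% held at least 1 AGGTCA. The TGACG half-site, part of the element through which cAMP signals, occurred 1 time each in the Ppara and Ppargc1a windows and in 20.8% of all windows. These windows differed in base composition, with 74.7% G and C in Ppara, 66.0% in Esrra, 83.0% in the first and 54.3% in the second Rxra window and 48.7% in Ppargc1a, against a median of 52.7% over all windows. The deposited gene values do not separate transcripts by start site. A match is a run of letters in the window and no measure of binding.

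Expression was given as FPKM (fragment number divided by gene length in kilobases and by the library's total). The totals were 26576291 to 30237490 fragments in DDK livers, against 33963898 to 36105315 in vehicle livers. DDK was compared with vehicle by limma on log2(FPKM + 1) over the 10681 genes that reached an FPKM of 0.5 in at least 3 libraries, and an adjusted p under 0.05 counted as a change. Of the 9 genes, 8 entered the test and Esr1 did not. Among the 8, Ppara, Rxra and Nr3c1 fell and Esrra rose in DDK livers, while Ppard, Rxrb, Thrb and Ppargc1a did not pass. This count of 4 in 8 stands beside 40.5% of all tested genes, of which 30.3% fell and 10.2% rose, so the share of members called lay near that of all genes. The median log2 fold change was -0.14 over the 8 tested members and -0.23 over all tested genes. Nothing in the labels says whether mice of a group shared a cage or litter, and the p-values measure only the spread between these livers. In whole liver, fewer cells of a type and less RNA per cell cannot be told apart.

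**Figure D1:**
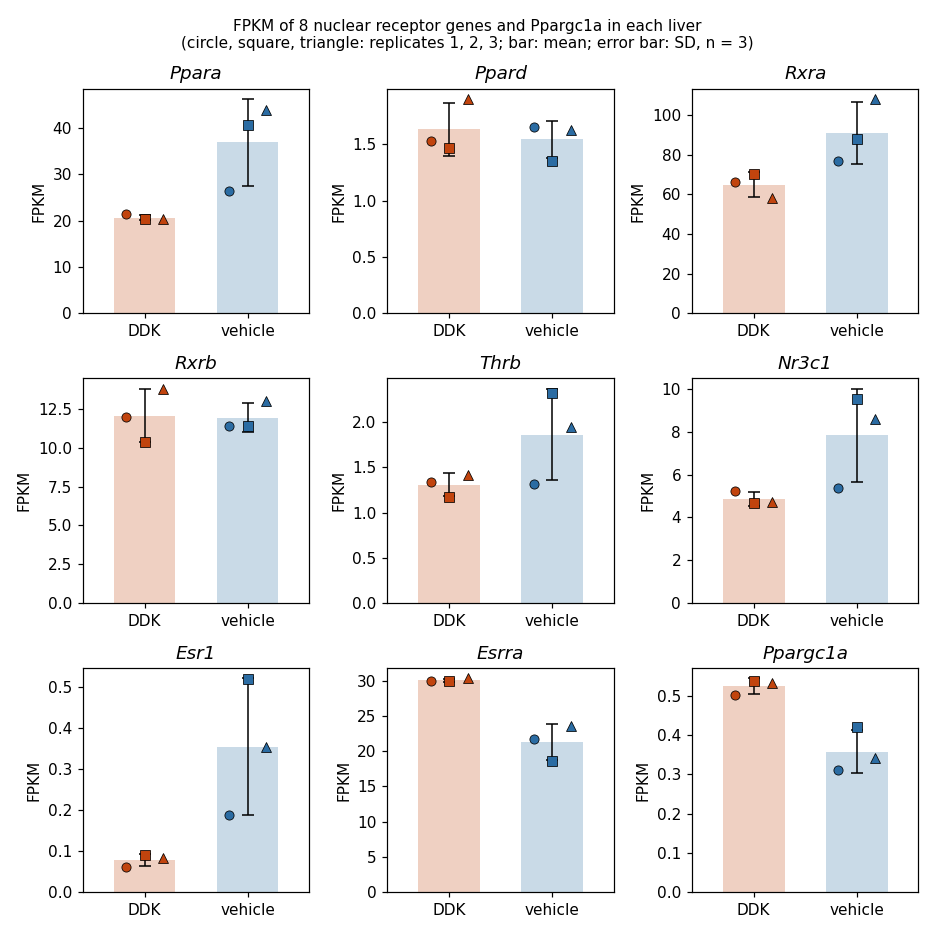
FPKM of the 9 genes in each liver, DDK on the left and vehicle on the right of each panel; symbols are replicates 1 to 3, bars are means and error bars are SD (n = 3), each axis starting at 0. Ppara, Rxra, Nr3c1 and Esr1 stood lower and Esrra and Ppargc1a higher in all 3 DDK livers than in any vehicle liver.

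Ppara, which encodes the fasting-activated lipid sensor PPAR alpha (chromosome 15, 85734983 to 85802819 on GRCm38), fell in DDK livers to 56.0% of its vehicle mean. Its FPKM was 21.4, 20.3 and 20.3 in DDK replicates 1 to 3, against 26.3, 40.6 and 43.8 in vehicle replicates 1 to 3. The groups did not overlap, the DDK livers lay close together, and vehicle replicate 1 stood nearest to them. The means were 20.7 ± 0.662 in DDK and 36.9 ± 9.33 in vehicle (SD, n = 3 each), a log2 fold change of -0.78 ± 0.18 (SE, limma adjusted p = 0.00946). Between 5623 and 6425 fragments lay behind each DDK value and between 9903 and 15521 behind each vehicle value, so counting error was smaller than the spread between livers. Ppara was the member whose call held under all 20 alternative settings, which include leaving out each library in turn, with log2 fold changes from -1.02 to -0.48 and adjusted p-values from 0.000283 to 0.0443.

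Ppard, which encodes the broadly expressed PPAR delta (chromosome 17, 28232700 to 28301474), showed no change past the threshold. Its FPKM was 1.53, 1.47 and 1.90 in DDK and 1.65, 1.35 and 1.63 in vehicle livers, and the groups overlapped. The log2 fold change was 0.05 ± 0.13 (adjusted p = 0.796). Within each library the FPKM of Ppara divided by that of Ppard does not depend on how libraries are scaled. That ratio was 14.0, 13.8 and 10.7 in DDK livers, against 15.9, 30.0 and 26.9 in vehicle livers, with no overlap. How often ratios of other gene pairs separate was not computed.

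Rxra encodes RXR alpha, the main hepatic partner with which PPAR alpha, the thyroid hormone receptor and several other receptors bind DNA. By the deposited FPKM it was the highest of the 9 genes in every library. With the same fragments divided by GENCODE M21 length, which mixes gene models, its vehicle mean (88.9) lay below that of Ppara (100). It fell in DDK livers (chromosome 2, 27676440 to 27762957). Its FPKM was 66.1, 70.3 and 58.0 in DDK livers, against 77.0, 88.1 and 108 in vehicle livers. All DDK values lay below all vehicle values, with DDK replicate 2 and vehicle replicate 1 nearest to each other. The means were 64.8 ± 6.26 in DDK and 91.0 ± 15.6 in vehicle (SD, n = 3 each), with a log2 fold change of -0.47 ± 0.15 (SE, limma adjusted p = 0.0319). This call ended after median-ratio scaling (log2 fold change -0.17, adjusted p = 0.422) and after gene length correction (-0.15, adjusted p = 0.371), and without any of DDK replicates 1, 2 and 3 or vehicle replicates 2 and 3 (adjusted p = 0.0626 to 0.13).

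Rxrb encodes RXR beta, a second RXR that can take the same partners (chromosome 17, 34031812 to 34038399). Its FPKM was 12.0, 10.4 and 13.8 in DDK livers and 11.4, 11.4 and 13.0 in vehicle livers, with full overlap. The log2 fold change was 0.01 ± 0.14 (adjusted p = 0.965). Rxra divided by Rxrb was 5.52, 6.75 and 4.19 in DDK livers, against 6.74, 7.71 and 8.32 in vehicle livers. The ratio averaged 5.49 ± 1.28 in DDK and 7.59 ± 0.798 in vehicle (SD, n = 3 each), and DDK replicate 2 reached the level of vehicle replicate 1, so the groups overlapped.

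Thrb encodes the thyroid hormone receptor beta, the main thyroid hormone receptor of hepatocytes (chromosome 14, 17660261 to 18038090). Its FPKM was 1.34, 1.17 and 1.42 in DDK livers, against 1.32, 2.32 and 1.95 in vehicle livers. Vehicle replicate 1 lay among the DDK values, so the groups overlapped. The means were 1.31 ± 0.127 in DDK and 1.86 ± 0.504 in vehicle (SD, n = 3 each), and the log2 fold change of -0.29 ± 0.16 did not pass (limma adjusted p = 0.153). It passed without vehicle replicate 1 (-0.44, adjusted p = 0.0199) and with library weights (-0.41, adjusted p = 0.0182), and stood at -0.02 after quantile normalization.

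Nr3c1 encodes the glucocorticoid receptor (chromosome 18), and it fell in DDK livers by a margin that rested on 2 vehicle livers. Its FPKM was 5.24, 4.67 and 4.71 in DDK livers, against 5.38, 9.54 and 8.61 in vehicle livers. The groups did not overlap, but DDK replicate 1 and vehicle replicate 1 nearly met. The means were 4.88 ± 0.315 in DDK and 7.84 ± 2.18 in vehicle (SD, n = 3 each), with a log2 fold change of -0.56 ± 0.19 (SE, limma adjusted p = 0.0413). The call ended after median-ratio scaling (-0.29, adjusted p = 0.185), after gene length correction (-0.27, adjusted p = 0.159), and without any of DDK replicates 1, 2 and 3 or vehicle replicates 2 and 3 (adjusted p = 0.0777 to 0.143). Without vehicle replicate 1 the change was larger, at -0.78 (adjusted p = 0.00186).

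Esr1 encodes the estrogen receptor alpha (chromosome 10, 4611593 to 5005614) and had the lowest mean FPKM of the 9 genes in DDK livers. In vehicle livers its mean was close to that of Ppargc1a (0.355 and 0.358), and it was below the expression minimum in 5 of 6 libraries. Its FPKM was 0.0629, 0.0908 and 0.0848 in DDK livers, against 0.188, 0.521 and 0.355 in vehicle livers. These values rested on 12, 16 and 17 fragments in DDK and 45, 118 and 80 in vehicle. For this gene 3 fragments make 0.0150 to 0.0170 FPKM in the DDK libraries and 0.0125 to 0.0133 FPKM in the vehicle libraries. The groups did not overlap, and the mean was 0.0795 ± 0.0147 in DDK and 0.355 ± 0.166 in vehicle (SD, n = 3 each). The exact 95% counting intervals of DDK replicate 2 (0.0519 to 0.147) and vehicle replicate 1 (0.137 to 0.252) still touched, and such intervals cover counting error only. With no minimum on expression, limma gave a log2(FPKM + 1) fold change of -0.32 (adjusted p = 0.0486), a scale that understates changes of so low a gene.

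Esrra encodes ERR alpha, an orphan receptor related to the estrogen receptors that drives genes of oxidative metabolism (chromosome 19, 6910977 to 6921813), and it was the member that rose. Its FPKM was 29.9, 30.0 and 30.3 in DDK livers, against 21.7, 18.6 and 23.6 in vehicle livers. All DDK livers stood above all vehicle livers, and relative to their mean the DDK values differed by less than those of any other member, with a coefficient of variation of 0.635% in DDK and 11.8% in vehicle. Between 1786 and 2053 fragments lay behind each DDK value. The counting error of such numbers is larger than 0.635%, so this closeness does not measure how steady the gene is. The means were 30.1 ± 0.191 in DDK and 21.3 ± 2.52 in vehicle (SD, n = 3 each), with a log2 fold change of 0.48 ± 0.13 (SE, limma adjusted p = 0.0156). The call ended after rescaling to TPM (0.26, adjusted p = 0.144) and without DDK replicate 1 (adjusted p = 0.0554), DDK replicate 2 (0.0576) or vehicle replicate 2 (0.0608). After median-ratio scaling the log2 fold change was 0.78 (adjusted p = 0.00398). In GENCODE M21, 73 bases of Esrra exons overlap those of Trmt112 on the other strand, and the library kit does not mark strand.

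Ppargc1a encodes PGC-1 alpha, a coactivator of PPAR alpha and ERR alpha whose transcription in liver rises in fasting (chromosome 5, 51454250 to 51567726). Its FPKM was 0.501, 0.539 and 0.532 in DDK livers, against 0.312, 0.420 and 0.343 in vehicle livers. The groups did not overlap, and the gene entered the test only because the 3 DDK values reached the minimum of 0.5. The means were 0.524 ± 0.0206 in DDK and 0.358 ± 0.0555 in vehicle (SD, n = 3 each). On the log2(FPKM + 1) scale, which compresses values of this size, the difference was 0.17 ± 0.11 and did not pass (limma adjusted p = 0.223). On the recovered whole fragments, 228 to 256 per DDK library and 179 to 228 per vehicle library, limma's voom gave 0.56 (adjusted p = 0.0566). That fit covered only genes kept by the minimum of 0.5, so it lends a rise of Ppargc1a no support. With no minimum on expression the gene did not pass (limma adjusted p = 0.0626). Among the genes kept by that minimum, which it met through its higher group, it had adjusted p-values of 0.0220 after quantile normalization (0.37) and 0.0218 after gene length correction (0.41), and these lend it no support.

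The groups did not overlap for 5 of the 8 tested members, with DDK above in 2 and below in 3, and in the untested Esr1 DDK was also below. The 2 with DDK above were Esrra and Ppargc1a. Ppargc1a met the minimum of 0.5 FPKM only through its DDK values, so its place in this count was fixed by that minimum. Among all tested genes 53.3% did not overlap, 14.1% with DDK above and 39.2% with DDK below. In all 4 members with DDK below, the lowest vehicle liver was vehicle replicate 1, as it was in 68.0% of all tested genes with DDK below. That library stood apart from the other vehicle libraries as a whole. The 20 genes most abundant over all libraries took 21.5% of its fragments, against 17.3% and 17.1% in vehicle replicates 2 and 3. In DDK replicates 1 to 3 they took 26.1%, 26.7% and 26.1%, so composition also differed between the groups. The weight of vehicle replicate 1 in the weighted fit was 0.28, against 1.34 and 1.31 in vehicle replicates 2 and 3. The coefficient of variation was smaller in DDK than in vehicle for 6 of the 8 tested members and for 61.2% of all tested genes.

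The order of the members by the deposited FPKM differed between the groups in 2 places, and which places these were depended on the gene length used. In DDK livers it ran Rxra, Esrra, Ppara, Rxrb, Nr3c1, Ppard, Thrb, Ppargc1a and Esr1, and no neighbours in this order overlapped, the nearest being Ppard (1.47 to 1.90) and Thrb (1.17 to 1.42). In vehicle livers it ran Rxra, Ppara, Esrra, Rxrb, Nr3c1, Thrb, Ppard, Ppargc1a and Esr1. There the ranges of Thrb (1.32 to 2.32) and Ppard (1.35 to 1.65) overlapped, as did those of Ppargc1a (0.312 to 0.420) and Esr1 (0.188 to 0.521). Ppara divided by Esrra was 0.715, 0.677 and 0.669 in DDK livers, against 1.21, 2.18 and 1.86 in vehicle livers. Thus each DDK liver had less Ppara than Esrra per length, and each vehicle liver had more. Every DDK liver stood below every vehicle liver in Ppara and above it in Esrra, so this ratio had to separate the groups. It adds nothing to the results of these members taken alone. Where the ratio crosses 1 depends on the gene length used, because the FPKM of Ppara was computed over 10433 bp and that of Esrra over 2242 bp, while their GENCODE M21 exons cover 3836 and 4387 bp. Likewise the FPKM of Thrb was computed over 13810 bp and that of Ppard over 3349 bp, while GENCODE gives 7403 and 7514 bp. The fragments were counted over the authors' gene models, so dividing them by GENCODE lengths mixes gene models. The values that follow are therefore no second measure of level, and show only that the order rests on the length used. So divided, Ppara stood above Esrra in both groups, at 56.2 and 15.4 in DDK and 100 and 10.9 in vehicle. Thrb then stood above Ppard in both groups, at 2.44 and 0.727 in DDK and 3.47 and 0.689 in vehicle. The pairs that changed places per GENCODE length were Rxra and Ppara (63.4 and 56.2 in DDK, 88.9 and 100 in vehicle) and Rxrb and Nr3c1 (8.41 and 5.55 in DDK, 8.32 and 8.93 in vehicle). The fold between the groups is the same with either length. Other ratios that were computed overlapped between the groups. They were Thrb over Thra (mean 0.388 in DDK and 0.397 in vehicle), Nr3c1 over Nr3c2 (4.86 and 4.62) and Esrra over Ppargc1a (57.4 and 60.9).

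**Figure D2:**
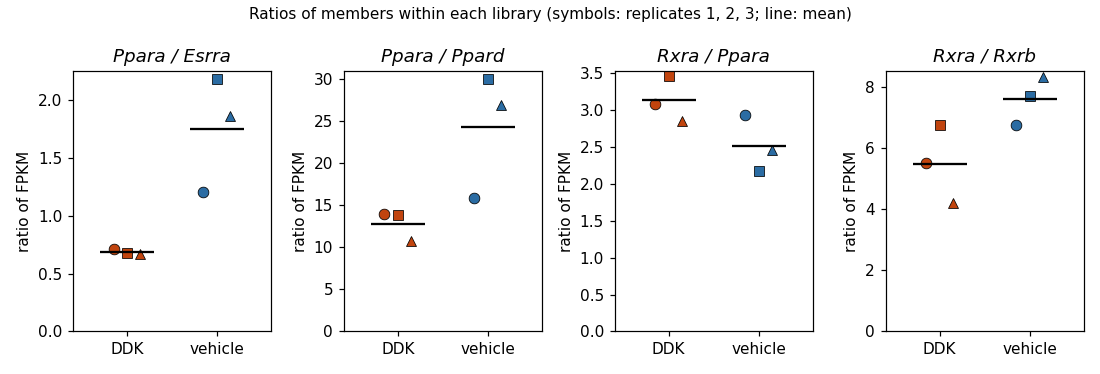
Ratio of FPKM between 2 members within each library, DDK left and vehicle right; symbols are replicates 1 to 3 and lines are means. Ppara over Esrra had to separate the groups, because every DDK liver had less Ppara and more Esrra than any vehicle liver. Ppara over Ppard did not overlap between the groups, while Rxra over Ppara (mean 3.14 in DDK and 2.52 in vehicle) and Rxra over Rxrb did. How often ratios of other gene pairs separate was not computed.

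Rank within a library is another measure that no scaling factor changes. Counted from the highest of the 10681 tested genes, Ppara stood at 2186 to 2266 in DDK livers and at 1450 to 2034 in vehicle livers. Esrra stood at 1704 to 1745 in DDK and 2245 to 2642 in vehicle, and Rxra at 964 to 1120 in DDK and 702 to 936 in vehicle. The ranks of Nr3c1 (4983 to 5244 in DDK, 4046 to 5200 in vehicle) and of Thrb (8155 to 8481 in DDK, 7772 to 8679 in vehicle) overlapped. Those of Rxrb (2907 to 3316 in DDK, 3433 to 3635 in vehicle), Ppard (7516 to 8048 in DDK, 8188 to 8987 in vehicle) and Ppargc1a (9960 to 10191 in DDK, 10540 to 10640 in vehicle) did not, with DDK nearer to the top. Ranks did not overlap for 6 of the 8 tested members, beside 48.8% of all tested genes. These 6 include Ppargc1a, which entered the test only through its DDK values.

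**Figure D3:**
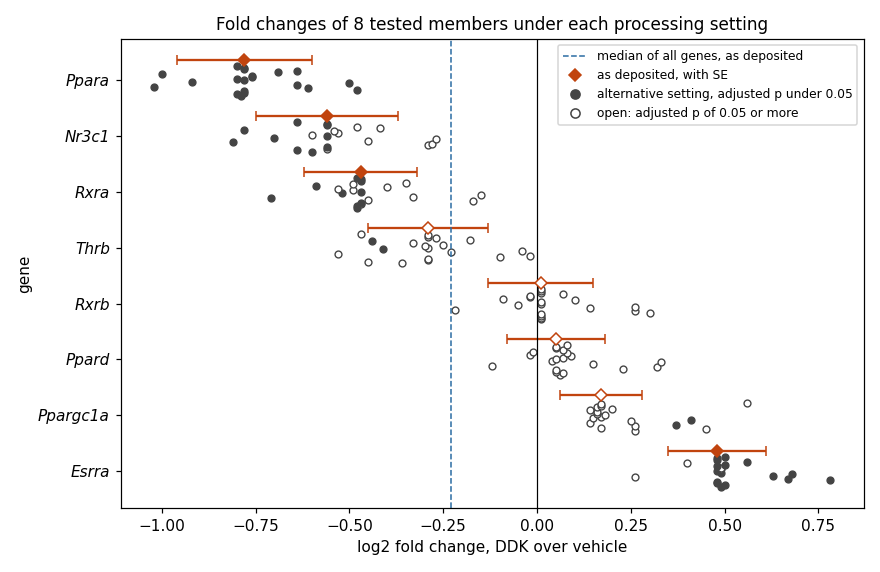
Log2 fold change of the 8 tested members, DDK over vehicle, as deposited (diamonds, with SE) and under each alternative setting (circles); filled symbols have an adjusted p under 0.05 and the dashed line is the median of all genes as deposited, -0.23. All circles of Ppara are filled and lie below 0, those of Esrra lie above 0 at 0.26 to 0.78, and those of Rxrb and Ppard lie on both sides of 0.

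Median-ratio scaling raised the log2 fold change of all 8 tested members, and rescaling to TPM lowered it. Relative to the median of all genes, Ppara stood at -0.55, Nr3c1 at -0.33, Rxra at -0.25, Thrb at -0.07, Rxrb at 0.24, Ppard at 0.27, Ppargc1a at 0.39 and Esrra at 0.71. The median of all genes moved to 0.00 after median-ratio scaling and to -0.45 after rescaling to TPM. Calls over all genes were 1093 higher and 3234 lower as deposited, 1963 and 1650 after median-ratio scaling, and 631 and 4929 after rescaling to TPM.

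Among the other 40 nuclear receptor genes, 25 were tested, 3 rose and 2 fell, with a median log2 fold change of -0.18. Of all tested genes 10.2% rose and 30.3% fell, with a median of -0.23, and this background applies to each list that follows. The genes that rose were Nr1i3 (log2 fold change 1.10 ± 0.25), which encodes the xenobiotic receptor CAR, Nr0b2 (0.88 ± 0.21), which encodes the corepressor SHP, and Nr1i2 (0.50 ± 0.12), which encodes the xenobiotic receptor PXR. Pparg, the third PPAR and a driver of fat storage, fell to 2.63 ± 0.198 FPKM in DDK against 11.2 ± 0.633 in vehicle (SD, n = 3 each; -1.75 ± 0.13, limma adjusted p = 0.000118). Nr1h4, the bile acid receptor FXR, stood at 0.27 ± 0.13 and Hnf4a, a master regulator of hepatocytes, at -0.25 ± 0.14, and neither passed. After median-ratio scaling 5 rose and 2 fell, under TPM 2 rose and 8 fell, and without vehicle replicate 1 the counts were 5 higher and 5 lower.

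**Figure D4:**
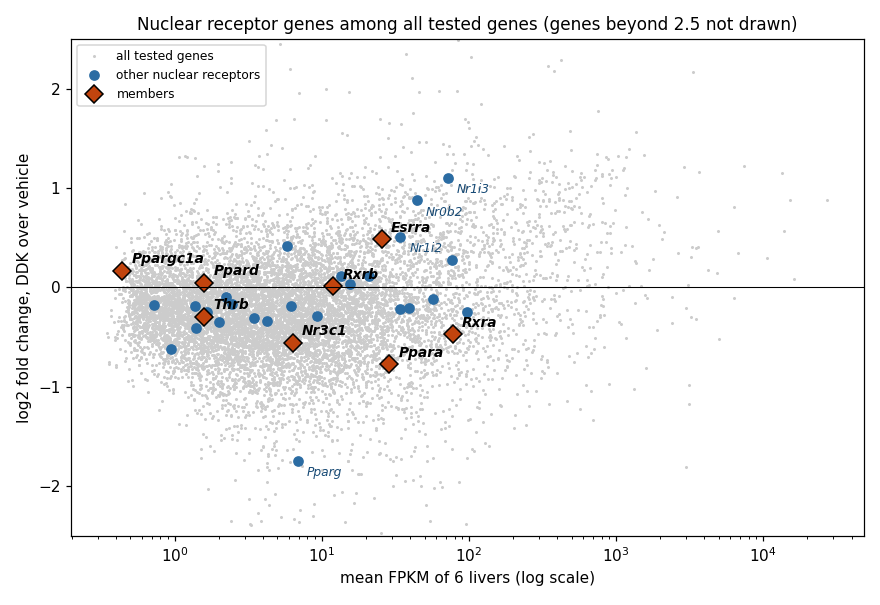
Log2 fold change (DDK over vehicle) against mean FPKM over the 6 livers on a log axis, for all tested genes (grey), 25 other nuclear receptor genes (blue) and the 8 tested members (orange diamonds). Ppara (-0.78) and Esrra (0.48) lie at similar mean levels on opposite sides of 0, and Pparg (-1.75) is the lowest of the nuclear receptor genes drawn.

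Of 19 tested coactivator and corepressor genes 1 rose and 3 fell, beside 10.2% and 30.3% of all genes, with a median log2 fold change of -0.15. Crebbp, an acetyltransferase that receptors recruit, rose by 0.52 ± 0.13. The corepressor gene Ncor1 (-0.58 ± 0.20), Tbl1x (-0.96 ± 0.22), which encodes a partner of the NCOR complex, and Lpin1 (-0.59 ± 0.16), which encodes a phosphatidate phosphatase that also coactivates PPAR alpha with PGC-1 alpha, fell. Ppargc1b, a close relative of Ppargc1a, had 0.934, 0.802 and 0.737 FPKM in DDK livers and 0.638, 0.736 and 0.737 in vehicle livers, and did not pass (log2 fold change 0.10 ± 0.11, limma adjusted p = 0.512). Of 15 tested genes of proteins that induce Ppargc1a transcription, 0 rose and 2 fell, beside the same shares of all genes, namely Prkaa2 (-0.91 ± 0.23), a catalytic subunit of AMP-activated protein kinase, and Prkacb (-0.63 ± 0.18), a catalytic subunit of protein kinase A. The glucagon receptor gene Gcgr stood at 0.31 ± 0.15 and did not pass. After median-ratio scaling 3 of the coactivator and corepressor genes rose and 1 fell, and 3 of the inducer genes rose and 1 fell. The coactivator and corepressor list had 7 lower without vehicle replicate 1, but 1 lower without any one of DDK replicates 1 and 2 and vehicle replicate 2, and 2 lower without vehicle replicate 3, and 0 higher without DDK replicate 1 or vehicle replicate 3. The inducer list had 2 higher and 4 lower without vehicle replicate 1, 0 lower without DDK replicate 2, and 1 lower without DDK replicate 1 or vehicle replicates 2 or 3.

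Of 35 tested PPAR alpha target genes 15 fell and 3 rose, beside 30.3% and 10.2% of all genes, with a median log2 fold change of -0.35 beside -0.23. Cpt1a, the gate of mitochondrial fatty acid oxidation, averaged 57.2 ± 5.24 FPKM in DDK and 146 ± 24.9 in vehicle (SD, n = 3 each; -1.32 ± 0.15). Aldh3a2 (-1.60 ± 0.12), Plin2 (-1.17 ± 0.14) and Hadhb (-1.01 ± 0.15) fell, while the abundant Fabp1 (0.57 ± 0.27) and Ech1 (0.18 ± 0.16) did not pass. The genes that rose were Cpt2 (0.43), Cyp4a31 (0.51) and Cyp4a32 (0.47), and the Cyp4a genes are near-identical copies whose fragments may be divided uncertainly. Plin2 encodes a coat protein of lipid droplets. The counts were 4 higher and 10 lower with median-ratio scaling and 0 higher and 23 lower under TPM. With a library left out, 12 to 18 were lower, and the number higher was 6 without vehicle replicate 1, 2 without DDK replicate 3, 1 without DDK replicate 2 or vehicle replicate 3, and 0 without DDK replicate 1 or vehicle replicate 2.

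Of 19 tested glucocorticoid receptor target genes 6 fell and 3 rose, with a median log2 fold change of -0.26. The share that fell was near the 30.3% of all genes, and the median lay -0.03 from theirs. The glucose-6-phosphatase gene G6pc (-1.63 ± 0.16), Tdo2 (-1.23 ± 0.23) and Pik3r1 (-1.03 ± 0.19) fell, and the serine dehydratase gene Sds (1.09 ± 0.24) rose with the metallothionein genes Mt1 (2.28) and Mt2 (2.22). Fkbp5 (0.34 ± 0.28) and Tsc22d3 (-0.32 ± 0.21), widely used readouts of the receptor, did not pass. The counts were 5 higher and 3 lower after median-ratio scaling. With a library left out, 3 were lower without DDK replicate 1 or 2 and 4 without vehicle replicate 1 or 2, while 1 was higher without DDK replicate 2.

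Of 13 tested thyroid hormone receptor target genes 11 fell and 0 rose, beside 30.3% and 10.2% of all genes, with a median log2 fold change of -1.15 beside -0.23. Fasn (-1.54 ± 0.18), Cpt1a, Srebf1 (-1.22 ± 0.18) and Bcl3 (-1.15 ± 0.15) fell, and Klf9 (0.07 ± 0.20) and Pck1 (-0.40 ± 0.26) did not pass. Several are also genes of fat synthesis under other regulators, and 5 of the 13 stand in another of the lists. The list does not separate genes that the receptor raises from genes that it lowers. After median-ratio scaling 7 were lower and 0 higher, and with each library left out 9 to 11 were lower and 0 higher. Dio1, which activates thyroid hormone and is itself induced by it, averaged 68.7 ± 4.87 FPKM in DDK and 127 ± 35.3 in vehicle (SD, n = 3 each; -0.85, limma adjusted p = 0.00765). Its call ended after median-ratio scaling (-0.54, adjusted p = 0.0802) and held under TPM (-1.08, adjusted p = 0.00193).

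Of 28 tested ERR alpha and PGC-1 alpha target genes 10 fell and 1 rose, with a median log2 fold change of -0.27. The share that fell was near the 30.3% of all genes, and the median lay -0.04 from theirs. Citrate synthase, Cs (-0.75 ± 0.13), Ucp2 (-1.20 ± 0.13) and G6pc fell, Cox5b (1.01 ± 0.17), a cytochrome oxidase subunit, rose, and Uqcrc1 (0.27 ± 0.12) did not pass. The counts were 5 higher and 5 lower after median-ratio scaling, 3 higher and 8 lower after gene length correction, 1 higher and 14 lower under TPM, and 2 higher and 10 lower without vehicle replicate 1.

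**Figure D5:**
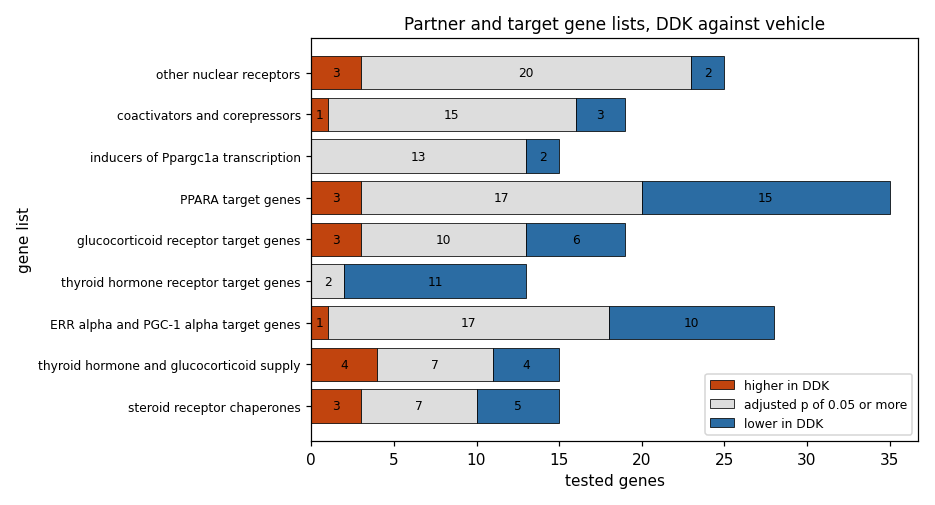
Number of tested genes in each list that were higher in DDK (orange), did not pass (grey) or were lower in DDK (blue), at an adjusted p under 0.05. The thyroid hormone receptor target list had 11 of 13 genes lower and the PPARA target list 15 of 35.

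Genes that set the supply of thyroid hormone and glucocorticoid numbered 4 higher and 4 lower of 15 tested as deposited, beside 10.2% and 30.3% of all genes, and 4 higher and 8 lower under TPM. Hsd11b1, which makes active glucocorticoid inside the liver, averaged 495 ± 60.1 FPKM in DDK and 237 ± 33.2 in vehicle (SD, n = 3 each; 1.06 ± 0.15, limma adjusted p = 0.00145). Akr1d1 (1.17 ± 0.24), which clears steroid hormones and makes bile acids, rose. Serpina7, which encodes thyroxine-binding globulin, fell by 2.01 on the log2 scale and the organic anion transporter gene Slco1b2 by 1.39. Ttr (0.81 ± 0.22) and Serpina6 (1.11 ± 0.25), which also encode hormone carriers of plasma, rose. Of 15 tested chaperone genes of steroid receptors 5 fell, a share near the 30.3% of all genes, and 3 rose, beside 10.2%. Their median log2 fold change was that of all genes (-0.23). Hsp90aa1 (-1.22 ± 0.25), Dnaja1 (-0.88 ± 0.17), Hsp90ab1 (-0.69 ± 0.13) and Ahsa1 (-0.58 ± 0.13) were among those that fell. Those that rose were Stub1 (0.56 ± 0.18), Bag1 (0.38 ± 0.12) and Ptges3 (0.38 ± 0.13). Hspa8 (-0.26 ± 0.15) and Fkbp4 (-0.23 ± 0.13) did not pass. For the chaperones the counts were 3 higher and 2 lower with median-ratio scaling, and 0 higher and 10 lower under TPM. With any one of DDK replicates 1 and 2 and vehicle replicates 2 and 3 left out they were 0 higher and 4 lower, and without DDK replicate 3 they were 1 higher and 4 lower.

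Cell type markers moved between the groups as well, and their part in the members' values was not tested. The 8 listed hepatocyte markers summed to 51183 to 54118 FPKM in DDK livers and 29307 to 37339 in vehicle livers, and 4 of 8 rose, or 2 of 8 under TPM. Alb (35473 in DDK, 19383 in vehicle) and Apoa1 (11691 in DDK, 9582 in vehicle) made up most of that sum. Alb rose, while Apoa1 overlapped between the groups and did not pass (0.30, limma adjusted p = 0.281). Cps1, with 131 in DDK and 189 in vehicle, Fah and Hpd did not pass either. The 10 macrophage markers summed to 184 to 464 FPKM in DDK and 612 to 998 in vehicle, and 7 of 10 fell. The 9 stellate cell and fibroblast markers summed to 61.3 to 85.3 FPKM in DDK and 138 to 181 in vehicle, and 7 of 9 fell. The sums of 8 endothelial markers (39.6 to 58.9 in DDK, 50.8 to 82.9 in vehicle) and 5 cholangiocyte markers (36.3 to 62.1 in DDK, 46.4 to 68.7 in vehicle) overlapped. Even so, 3 of 8 endothelial markers fell, Pecam1 (-1.02), Cdh5 (-0.78) and Lyve1 (-1.21), and 6 of 8 under TPM, while 1 of 5 cholangiocyte markers rose. The sums of 4 skeletal muscle markers overlapped (9.62 to 17.9 in DDK, 7.73 to 21.3 in vehicle). So did those of 4 adipocyte markers (2.69 to 61.9 in DDK, 39.7 to 135 in vehicle). Of these 4, 2 were tested: Adrb3 rose (1.12 ± 0.21) and Cfd, at 1.40 to 134 FPKM, did not pass. Of the adipocyte markers 1 was at 0 in every library. No other marker was at 0 in every library.

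The genes whose pattern over the 6 livers was most like that of 3 members were found by the root mean square difference of mean-centred log2(FPKM + 1) values among 10597 other genes. For Ppara they were D2hgdh (difference 0.033, log2 fold change -0.77), Lpgat1 (0.037, -0.77) and Glyctk (0.045, -0.74). For Esrra they were Stk11 (0.039, 0.52), Cbarp (0.043, 0.50) and Cblc (0.056, 0.44). For Ppargc1a they were Nmnat3 (0.036, 0.22), Il15ra (0.037, 0.17) and Trit1 (0.040, 0.16), and none of these 3 passed the test.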

How the data were processed

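RNA-seq of 6 mouse livers was used, 3 DDK and 3 vehicle, grouped by the treatment named in their titles. The deposited values were the authors' FPKM, 1 column per library. Per the submitters' processing notes the build was GRCm38 (mm10). The aligner, counter and annotation are not given in the sources used here. Per the labels' protocols, the NEBNext Ultra RNA kit was used, which does not mark strand.

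Library totals and gene lengths were recovered from the steps of the FPKM values, and 100.0% of the 16573 genes above 0 came out as whole fragments within 0.01. The other 5600 symbols were at 0 in every library. FPKM are not counts, so limma 3.58.1 (R 4.3.3) was fitted to log2(FPKM + 1) with a variance trend, and p-values were adjusted over the 10681 genes kept (Benjamini-Hochberg). Fold changes on this scale understate changes of low genes. Errors with fold changes are SE. The fit was tested on simulated data with known changes. Alternatives were pseudocounts of 0.5 and 0.1, no minimum or an FPKM of 1, median-ratio, quantile and TPM scaling, removal of the 20 most abundant genes, gene length correction (lowess, span 0.3), library weights, a replicate block, each library left out, robust moderation, no variance trend, voom on whole fragments, and an adjusted p of 0.01. They used the same 10681 genes except where the minimum was changed or the 20 genes were removed.

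The members and lists were chosen with earlier results of these data known. From each list, the rule took up to 4 genes with the smallest p that passed and up to 2 of the most abundant that did not. Not all are reported, and other list genes and the ratios were chosen after their values were seen. Gene positions are from GENCODE M21 and start windows from RefSeq (GRCm38.p6). Windows were used for 8 of the 9 members and not for Nr3c1. The result of 1 gene of the lists is not reported here.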

Additional observations from a re-analysis of the deposited data

How the results depend on the processing

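As reported, 4 members passed. Of the 8 members tested as reported, 2 passed with no minimum on expression, after median-ratio scaling and without the 20 most abundant genes. These were Ppara and Esrra each time. In that order of settings 20.3%, 33.8% and 35.7% of all genes passed, beside 40.5% as reported. With no minimum, Esr1 was tested as well and passed (-0.32, limma adjusted p = 0.0486). At an adjusted p of 0.01 the count of members was 1 (Ppara). With each library left out in turn the count of members ranged from 1 to 5, and the count over all genes from 2348 to 5686, against 4327 with all libraries. At an adjusted p of 0.01 the count over all genes was 2033. The replicate block gave the same 4 members and 4134 genes in all. The labels do not say that equal numbers mark a pair. Correlations of deviations from the group means were 0.141, -0.146 and 0.0558 for numbers 1 to 3. With 3 livers per group such values can neither show nor exclude a pairing. Ppard changed sign under TPM (-0.12) and without DDK replicate 3 (-0.02) or vehicle replicate 2 (-0.01). Rxrb changed sign with library weights (-0.05), under TPM (-0.22) and without DDK replicate 3 (-0.09), vehicle replicate 1 (-0.02) or vehicle replicate 2 (-0.02). With each library left out Ppard ranged from -0.02 to 0.09 and Rxrb from -0.09 to 0.10. The cause of these changes was not tested. Depth limits Esr1, with 12 to 17 fragments per DDK library.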
